A study of Mus musculus with 6 samples.

Results

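The collagen genes are the protein-coding genes of the deposited mouse kidney table whose symbol joins Col, a type number and a chain number. This rule uses names only and takes 44 of the 54532 genes in the table. Of these, 11 encode chains of fibrillar collagens and 6 encode chains of type IV collagen. RNA was sequenced from kidneys of 3 WT and 3 Trpm2-/- mice with cisplatin-induced acute kidney injury. All 6 mice were C57BL/6J, 6 to 8 weeks of age by the labels, whereas the methods give an older range for male mice in this model, and all had received 18 mg/kg cisplatin 72 h earlier. The Trpm2-/- mice carry, in every cell type, an allele of Trpm2, a gene for a calcium-permeable cation channel, from which exons for transmembrane domains are missing. According to the methods, the WT mice were purchased and the Trpm2-/- line came from another institution. No untreated kidneys were analysed here, so each comparison is between genotypes under cisplatin.

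A collagen is built of chains wound into a rope-like helix, and each chain repeats Gly-X-Y, with glycine as the only residue small enough for the core of the helix. Fibrillar collagens, types I, III and V among them, form the banded fibers of the interstitium and come mainly from fibroblasts and pericytes. Type IV collagen forms the sheet-like network of basement membranes. In the kidney, the α1 and α2 chains of type IV lie under most epithelia and endothelia, whereas the α3, α4 and α5 chains form the mature glomerular basement membrane and are mutated in Alport syndrome.

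Sequences help to see what separates these classes. The first lines below are exons of exactly 54 bases from 4 fibrillar chains. They are shown because this exon size was most frequent in the fibrillar genes. Each is made of 6 Gly-X-Y units, and the glycine codon that opens each unit is set in capitals. In Col1a1 the codon ggt, in lower case near the end, also encodes glycine. The 4 exons were chosen as examples with this repeat and do not show how common it is. They are written 5′ to 3′ on the coding strand of GRCm38, and all 4 genes lie on the plus strand.
Col1a1, exon 8, chr11:94939904-94939957: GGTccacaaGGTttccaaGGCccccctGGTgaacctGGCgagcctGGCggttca
Col1a2, exon 8, chr6:4515481-4515534: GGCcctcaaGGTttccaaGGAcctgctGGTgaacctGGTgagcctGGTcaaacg
Col3a1, exon 6, chr1:45325360-45325413: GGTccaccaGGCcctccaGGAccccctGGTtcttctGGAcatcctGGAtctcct
Col27a1, exon 4, chr4:63231792-63231845: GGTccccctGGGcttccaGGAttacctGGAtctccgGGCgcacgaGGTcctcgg
In the principal transcripts of the 11 fibrillar genes, 305 of 627 whole coding exons (48.6%) had 54 bases. The share was 12 of 284 (4.23%) in the 6 type IV genes and 0.723% over all protein-coding genes. The 9 genes of the FACIT collagens, described below, had 109 of 414 (26.3%), so the size is not confined to the fibrillar genes. Exon lengths that are multiples of 9, which keep whole Gly-X-Y units, made up 83.9% of the fibrillar, 47.2% of the type IV and 14.2% of all coding exons. In the transmembrane collagens they made up 69.7%.

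The type IV genes lie head to head in pairs, and the DNA between their starts is shown because both genes of a pair start there. Col4a1 on the minus strand and Col4a2 on the plus strand of chromosome 8 overlap by 22 bases. Col4a4 on the minus strand and Col4a3 on the plus strand of chromosome 1 are 71 bases apart. Both stretches follow, on the plus strand of GRCm38.p6.
Col4a1 and Col4a2, chr8:11312805-11312826: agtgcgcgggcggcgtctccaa
Col4a4 and Col4a3, chr1:82586850-82586920: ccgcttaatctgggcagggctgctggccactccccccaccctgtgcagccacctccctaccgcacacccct
The third pair, Col4a6 and Col4a5 on chromosome X, is 1308 bases apart.

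Total counts on genes were 15991951 to 17150089 in the WT and 14053307 to 16150446 in the Trpm2-/- libraries, and 3 counts, the smallest amount taken as detectable, came to 0.175 to 0.213 CPM, the count scaled to library size. Collagen genes together took 0.156% to 0.194% of counts in WT and 0.232% to 0.249% in Trpm2-/- libraries, and the groups did not overlap. Of single genes tested, 16.7% also separated in this direction. The share leans on a few abundant genes. Col18a1 had means of 654 and 936 CPM in WT and Trpm2-/- kidneys, and Col4a1 300 and 419 CPM. Neither was called in the test below, where the median log2 fold change of the collagen genes was 0.09. Genes of the mitochondrial genome took 4.43% to 4.72% of counts in WT and 7.91% to 11.0% in Trpm2-/- libraries. Trpm2 itself had 5, 5 and 27 counts in WT and 10, 16 and 20 in Trpm2-/- kidneys, and because a whole-gene count covers the exons kept in the allele, it does not check the genotype. Markers of the proximal tubule summed to 2496 to 3535 CPM in WT and 652 to 1100 CPM in Trpm2-/- kidneys, and 8 of 8 were called lower. Trpm2-/- replicate 4 stood apart in markers of podocytes (565 CPM against 160 to 201 CPM in the other 5 libraries) and of fibroblasts (103 CPM against 25.5 to 53.8 CPM). WT replicate 1 stood apart in urothelial markers other than Krt20, with 77.8 CPM for the sum of 7 against 8.62 to 23.1 CPM elsewhere. Beside the results that moved with these libraries, the values without them are given where the change was large.

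At least 1 count fell on 43 of the 44 collagen genes, and Col9a1, a chain of cartilage, had 0 counts in all 6 libraries. The filter on low counts kept 30 collagen genes and 15816 genes in all. Of the 30, 2 were called higher in Trpm2-/- kidneys at an adjusted p under 0.05 (edgeR's quasi-likelihood test, Benjamini-Hochberg adjustment over all genes tested), against 4.74% of all genes tested. In edgeR 0 of the 30 were called lower, against 7.28% of all genes tested, with 1 lower at an unadjusted p under 0.05, 0 lower with DESeq2 and 0 with limma-voom. Upward, 5 of the 30 had an unadjusted p under 0.05, DESeq2 called 4 and limma-voom 2. Over all genes tested in edgeR, 14% had an unadjusted p under 0.05 upward and 14% downward. These shares are also the background for the classes and marker lists below. Among all genes, DESeq2 called 1095 higher and limma-voom 698. The 2 called higher in edgeR were Col17a1 and Col8a1. This edgeR pair also passed the threshold of the methods (absolute log2 fold change above 1, unadjusted p under 0.05), which 3.50% of all genes passed upward and 4.10% downward. The log2 fold changes ran from -1.34 to 1.69 with a median of 0.09, beside 0.02 over all genes tested, and 18 of the 30 lay above 0, against 51.6% of all genes. Every Trpm2-/- library exceeded every WT library for 4 of the 30 (Col17a1, Col8a1, Col4a1 and Col4a5), where the share over all genes was 16.7%. The reverse held for 0 of the 30, against 16.9%. For the other collagen genes the difference between genotypes was not distinguished from the spread between kidneys. Without Trpm2-/- replicate 4, the median log2 fold change of the tested collagen genes was -0.24, 3 were called higher and 1 lower.

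**Figure D1:**
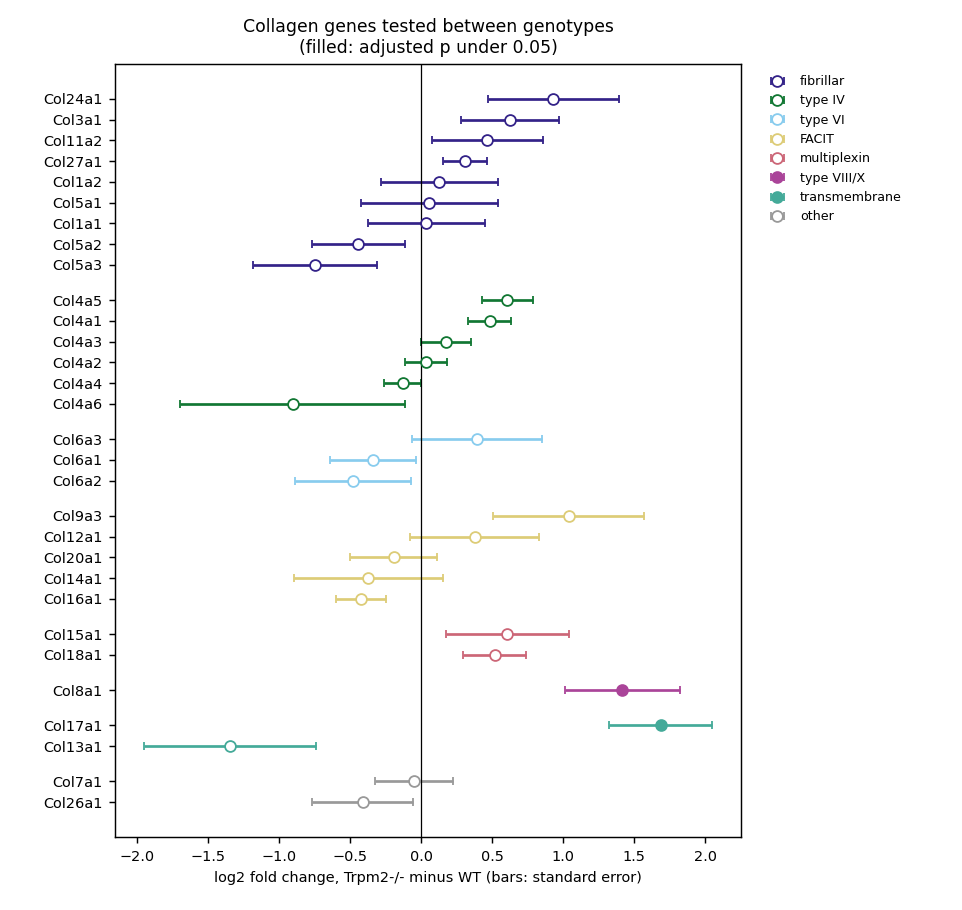
Log2 fold change of the 30 tested collagen genes, Trpm2-/- minus WT (3 mice each), grouped by class, with the standard error from edgeR as bars; filled points have an adjusted p under 0.05. The 2 filled points are Col17a1 (1.69) and Col8a1 (1.42), and the bars of Col1a1 (0.04) and Col1a2 (0.13) span 0.

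By level, the kidney's collagen messages were dominated by chains of basement membranes. On the scale of FPKM per length of the principal transcript, Col18a1 was highest with 120 ± 16.9 in WT and 172 ± 46.2 in Trpm2-/- kidneys (SD, n = 3). It encodes the heparan sulfate-bearing collagen of basement membranes from which endostatin is cut. Col4a1 followed with 39.7 ± 5.79 and 55.9 ± 4.74. Col27a1 had 27.8 ± 1.64 and 34.7 ± 6.10, and Col4a2 had 25.8 ± 3.54 and 26.7 ± 2.83, and these neighbours overlapped among the libraries of each genotype, below all values of Col4a1 in the same genotype. Col4a4 (12.8 ± 0.392 and 11.8 ± 1.59) and Col4a3 (11.1 ± 1.08 and 12.6 ± 2.91) overlapped in Trpm2-/- but not in WT kidneys. Col4a5 came next with 6.87 ± 1.87 and 10.6 ± 0.644, below Col4a3 in each WT library and overlapping it in Trpm2-/- kidneys. The chains of type I and III collagen were far lower. Col1a2 had 3.57 ± 0.701 and 3.94 ± 2.82, Col3a1 1.66 ± 0.443 and 2.58 ± 1.29, and Col1a1 1.36 ± 0.336 and 1.40 ± 0.930. The order depends on the length used. The deposited FPKM divide by a gene length that, for 42 of the 44 genes, is the union of all annotated exons and for Col1a2 is 12426 bases against 5348 in its principal transcript, and on that scale Col1a2 ranked 10 rather than 8 among the collagens and Col27a1 ranked 4 rather than 3.

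**Figure D2:**
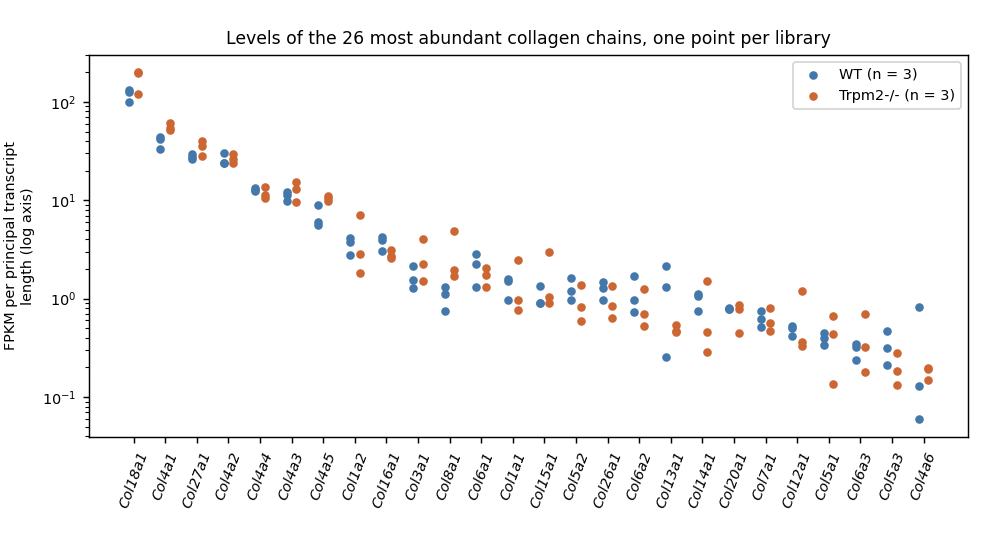
FPKM per principal transcript length (log axis) of the 26 most abundant collagen chains, with 1 point per library and 3 libraries per genotype. Col18a1, Col4a1, Col27a1 and Col4a2 lead, and the Trpm2-/- points of Col1a2 spread from 1.83 to 7.14.

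The collagen gene with the lowest adjusted p was Col17a1 (chromosome 19, 47646344 to 47692094, minus strand), a membrane-spanning collagen that anchors epithelial cells to the basement membrane at hemidesmosomes. Its counts were 10, 12 and 11 in WT and 37, 32 and 36 in Trpm2-/- kidneys. All 3 Trpm2-/- kidneys lay above all 3 WT kidneys, and the values within each genotype were close. CPM went from 0.686 ± 0.0780 to 2.23 ± 0.0411 (SD, n = 3). The log2 fold change was 1.69 (edgeR adjusted p = 0.0176, SE 0.362). The fold change lay between 1.61 and 1.77 with any library left out, but the adjusted p of the same edgeR test rose to 0.0566, 0.0744 and 0.0979 without WT replicates 1, 2 and 3. Col17a1 is a rare message here, at 0.110 ± 0.0124 and 0.359 ± 0.00818 FPKM per transcript length (SD, n = 3). The urothelium is a cell layer known to carry hemidesmosomes. Of the genes listed as its markers, Krt20 was also called higher (621 to 758 CPM in WT, 970 to 1307 CPM in Trpm2-/-). Psca and Upk3a were called lower, and Krt5 had 3.68 to 8.25 and 5.28 to 7.09 CPM. The sum of the 8 markers, 6 of them tested, was 644 to 773 CPM in WT and 982 to 1318 CPM in Trpm2-/- kidneys, and most of it was Krt20. The other 7 summed to 77.8, 14.1 and 23.1 CPM in WT and to 8.62, 11.8 and 12.2 CPM in Trpm2-/- kidneys, the opposite direction, and Upk3a stood at 0 to 0.273 CPM in the Trpm2-/- libraries. The part of these cells in the value of Col17a1 was not tested. The 198 bases before the gene are shown because they adjoin the collagen gene with the lowest adjusted p, on the strand of the gene (GRCm38.p6, RefSeq window), with TATAAA in capitals.
Col17a1, chr19:47692095-47692292: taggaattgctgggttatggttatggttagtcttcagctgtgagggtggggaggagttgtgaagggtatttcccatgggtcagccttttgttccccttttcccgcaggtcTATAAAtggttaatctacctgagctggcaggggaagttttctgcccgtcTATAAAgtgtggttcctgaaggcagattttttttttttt
The letters TATAAA occur 2 times, starting 88 and 39 bases before the gene, and 9.9% of 32851 RefSeq windows of this length hold them on either strand. The CCAAT box, the GC box and the AP-1 motif had no match in this window.

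Col8a1 (chromosome 16, 57624258 to 57754737, minus strand), a short network-forming chain known from vessel walls and the membrane under corneal endothelium, was the other call. It had 106, 119 and 71 counts in WT and 462, 166 and 158 in Trpm2-/- kidneys. The genotypes did not overlap, but Trpm2-/- replicate 1 alone had 28.2 CPM where the other 2 had 11.3 and 9.82 CPM. The means were 6.17 ± 1.67 and 16.5 ± 10.2 CPM (SD, n = 3). The log2 fold change was 1.42 (edgeR adjusted p = 0.0499, SE 0.403). Without Trpm2-/- replicate 1 the log2 fold change was 0.77 and the adjusted p of this edgeR test 0.136. The call was also lost without WT replicate 1, 2 or 3 (adjusted p = 0.103, 0.1 and 0.18 in edgeR) and under 8 of 12 settings other than leaving out a library. These 8 include the replicate number as a block, which drops WT replicate 3 and Trpm2-/- replicate 4 from the contrast. Limma-voom was also among the 8 (log2 fold change 1.30, adjusted p = 0.0846). Trpm2-/- replicate 1 was also the highest library in the sum of the smooth muscle markers. Acta2, smooth muscle actin, had 7.94, 6.29 and 13.4 CPM in WT and 41.5, 13.5 and 21.1 CPM in Trpm2-/- kidneys, and Myh11 had 6.77, 6.29 and 9.07 against 25.0, 8.25 and 12.6 CPM. Notch3 was highest in this library too. Rgs5 and Tagln were highest in Trpm2-/- replicate 4 (Rgs5 18.2 against 15.5 CPM in replicate 1). Cnn1 was highest in WT replicate 1 (1.48 against 1.34 CPM). The log2 fold changes of Rgs5 and Cnn1 were 0.19 and 0.22. The summed 6 markers ranged over 37.8 to 56.0 CPM in WT and 50.6 to 112 CPM in Trpm2-/- libraries, Acta2 was called higher among the 5 tested, though not in 8 of 18 settings, among them without Trpm2-/- replicate 1 (0.91, edgeR adjusted p = 0.146), and Tagln stood at 0 to 0.497 CPM. The part of smooth muscle cells in the value of Col8a1 was not tested. In bulk tissue, more cells of a type and more RNA per cell cannot be told apart. The partner chain Col8a2 had 2, 0 and 1 counts in WT and 5, 3 and 8 in Trpm2-/- kidneys, and Col10a1, the chain of growth plate cartilage, had 0, 1 and 0 against 2, 1 and 0, both too few to test. The 250 bases before Col8a1 follow for the same reason, on the strand of the gene (GRCm38.p6, RefSeq window), with GGGCGG, here on the reverse strand as CCGCCC, in capitals.
Col8a1, chr16:57754738-57754987: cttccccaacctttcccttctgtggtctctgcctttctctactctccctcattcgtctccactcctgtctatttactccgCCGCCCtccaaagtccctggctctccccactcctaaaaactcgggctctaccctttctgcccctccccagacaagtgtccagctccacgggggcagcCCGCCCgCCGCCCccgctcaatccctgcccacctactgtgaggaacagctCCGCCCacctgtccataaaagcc
These letters occur 4 times, starting 170, 73, 66 and 23 bases before the gene, and 32.7% of the windows of this length hold them at least once. The TATA, CCAAT and AP-1 motifs had no match in this window.

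In edgeR 0 of the 6 type IV chains were called, 2 had an unadjusted p under 0.05, DESeq2 called 2 and limma-voom 1. Their median log2 fold change was 0.10, and 4 lay above 0. Col4a1 (chromosome 8, 11198423 to 11312826) came close. It had 316, 332 and 251 CPM in WT and 459, 391 and 406 CPM in Trpm2-/- kidneys. Every Trpm2-/- kidney was above every WT kidney, and the means were 300 ± 43.1 and 419 ± 35.4 CPM (SD, n = 3). The log2 fold change was 0.48 (edgeR adjusted p = 0.0715, SE 0.153). Col4a1 was called with DESeq2's Wald test (adjusted p = 0.0241) and with upper-quartile scaling in edgeR (adjusted p = 0.0499). With any 1 library left out it was not called, at 0.36 to 0.56 (edgeR adjusted p = 0.076 to 0.311). It was 0.35 with a correction for gene length (edgeR adjusted p = 0.162) and 0.39 with the replicate number as a block (edgeR adjusted p = 0.312). Its head-to-head partner Col4a2, whose chain joins it in the same network, had 175, 220 and 175 CPM in WT and 193, 177 and 215 CPM in Trpm2-/- kidneys. The genotypes overlapped, with a log2 fold change of 0.04 (edgeR adjusted p = 0.900, SE 0.147) whose sign turned below 0 without WT replicate 1, without WT replicate 3 and without Trpm2-/- replicate 4. Within a library, the ratio of Col4a1 to Col4a2 per transcript length was 1.76, 1.47 and 1.40 in WT and 2.32, 2.16 and 1.84 in Trpm2-/- kidneys. The ratios did not overlap between genotypes and their means stood 1.36 to 1. No test was run on this ratio. Of the chain pairs compared, only this one and Col3a1 to Col1a1 separated the genotypes, and the others overlapped. The others were Col4a1 to Col4a3 (3.35 to 3.9 in WT, 3.57 to 5.45 in Trpm2-/-) and Col4a5 to Col4a3 (0.528 to 0.75 and 0.694 to 1.04). The rest were Col4a3 to Col4a4, Col1a1 to Col1a2, Col6a1 to Col6a2, Col6a3 to Col6a1, Col5a1 to Col5a2 and Col18a1 to Col15a1. The pairs were picked by hand, and some share a chain. Of single genes tested, 16.7% separated the genotypes upward and 16.9% downward.

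Among the chains of the glomerular network, Col4a3 had 117, 110 and 97.0 CPM in WT and 126, 92.8 and 147 CPM in Trpm2-/- kidneys, and Col4a4 had 147, 152 and 144 against 129, 121 and 154 CPM. Both pairs of groups overlapped, with log2 fold changes of 0.17 (adjusted p = 0.564) and -0.13 (adjusted p = 0.567) in edgeR. Trpm2-/- replicate 4, the library highest in podocyte markers, was the highest in both, and without it the log2 fold changes were 0.03 and -0.23. The part of podocytes was not tested, and 4.92% of the 75-base windows of Col4a3 also occur in a transcript on the opposite strand. The ratio of Col4a3 to Col4a4 was 0.944, 0.856 and 0.796 in WT and 1.15, 0.904 and 1.13 in Trpm2-/- kidneys, with an overlap. Col4a5 (chromosome X, 141475385 to 141689234) had 67.1, 44.5 and 42.0 CPM in WT and 82.6, 73.5 and 78.0 CPM in Trpm2-/- kidneys. The genotypes did not overlap, and the log2 fold change of 0.61 (SE 0.182) had an edgeR adjusted p of 0.0588. Without WT replicate 1, the highest WT library, the adjusted p was 0.0125 in edgeR, whereas it was 0.0715 to 0.242 without any other single library. Among other tools, DESeq2 (adjusted p = 0.0255) and limma-voom (adjusted p = 0.048) also called it. Col4a6, which forms the α5 and α6 network of Bowman's capsule and smooth muscle, had 101, 7 and 16 counts in WT and 24, 22 and 18 in Trpm2-/- kidneys. WT replicate 1 decided its value, since the log2 fold change was -0.90 with this library and 0.91 without it. This library was also the highest in the urothelial markers other than Krt20, whose part in the value was not tested.

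**Figure D3:**
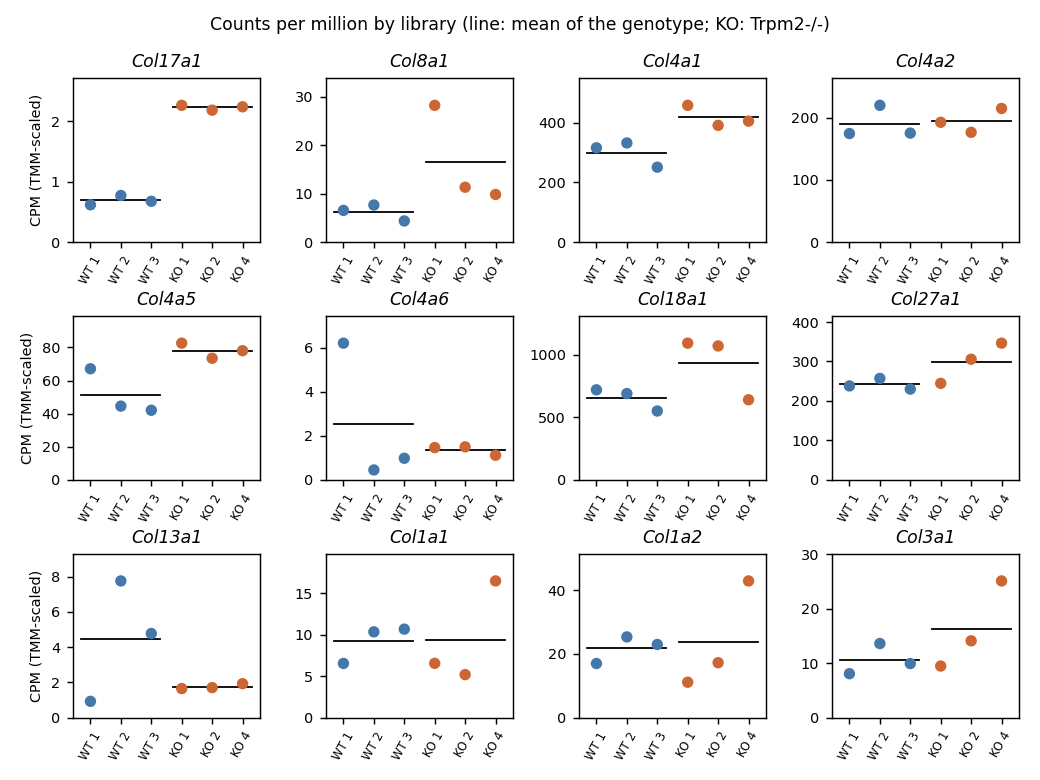
TMM-scaled CPM of 12 collagen genes in each library, with a line at the mean of the 3 libraries per genotype. Col17a1, Col8a1, Col4a1 and Col4a5 separate the genotypes without overlap, 1 WT library carries the mean of Col4a6, and replicate 4 of the Trpm2-/- kidneys is highest for Col1a1, Col1a2 and Col3a1.

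**Figure D4:**
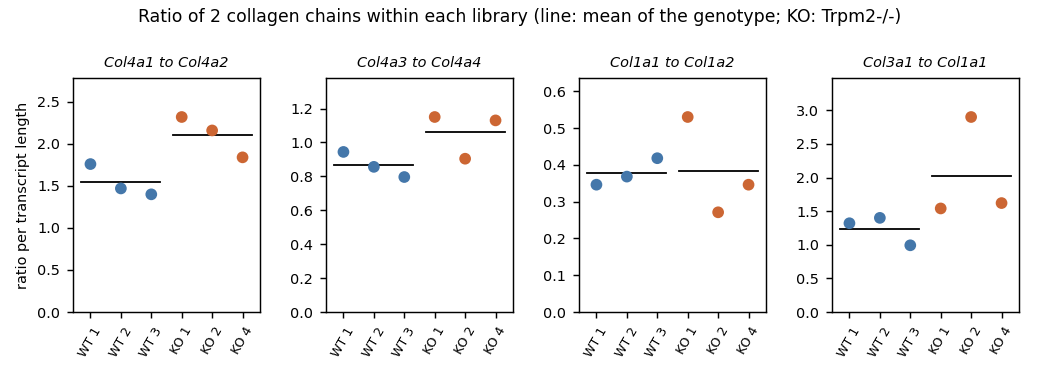
Ratio of 2 collagen chains per principal transcript length in each library, with a line at the mean of each genotype. The ratios of Col4a1 to Col4a2 and of Col3a1 to Col1a1 are higher in all 3 Trpm2-/- kidneys, whereas those of Col4a3 to Col4a4 and of Col1a1 to Col1a2 overlap. The other chain pairs compared, which are not drawn, overlapped too.

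Of the 11 fibrillar genes, 9 were tested and 0 were called in either direction by edgeR, by DESeq2 or by limma-voom, and 0 had an unadjusted p under 0.05. Their median log2 fold change was 0.13, with 7 above 0 and 2 below, and it ranged from -0.48 without Trpm2-/- replicate 4 to 0.47 without Trpm2-/- replicate 1. Type I collagen is the main collagen of scars and of the fibrotic kidney. Its chain Col1a1 had 106, 161 and 174 counts in WT and 107, 76 and 265 in Trpm2-/- kidneys, and Col1a2 had 276, 395 and 375 against 182, 253 and 691. In both, a Trpm2-/- kidney had the lowest CPM and Trpm2-/- replicate 4 the highest. The log2 fold changes were 0.04 (SE 0.410) and 0.13 (SE 0.413). Without replicate 4 they were -0.63 and -0.61, still uncalled (adjusted p = 0.185 and 0.14 in edgeR), and without WT replicate 1 they were -0.16 and -0.03. The ratio of Col1a1 to Col1a2 per transcript length was 0.346, 0.368 and 0.418 in WT and 0.530, 0.271 and 0.346 in Trpm2-/- kidneys, although the protein holds more of the α1 than of the α2 chain. With deposited gene lengths the same ratios were 0.727 to 0.879 and 0.569 to 1.11.

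Col3a1, the chain of type III collagen that accompanies type I in soft tissue, had 131, 212 and 162 counts in WT and 155, 207 and 404 in Trpm2-/- kidneys. The groups overlapped, and the log2 fold change was 0.62 (edgeR adjusted p = 0.269, SE 0.343), or 0.17 without Trpm2-/- replicate 4. Its ratio to Col1a1 was 1.32, 1.40 and 0.992 in WT and 1.54, 2.90 and 1.62 in Trpm2-/- kidneys, without overlap and with no test. Of the type V chains, which limit fibril width, Col5a1 had a log2 fold change of 0.06, Col5a2 of -0.44 and Col5a3 of -0.75, with none called. Col5a2 was -0.81 without Trpm2-/- replicate 4. Col5a1 turned to -0.48 without Trpm2-/- replicate 4 and to -0.05 without WT replicate 2. Col11a2 and Col24a1 had 0.47 and 0.93 at 17 to 33 and 9 to 24 counts per library. Col2a1, the cartilage chain, had 1 to 7 counts and Col11a1 had 1 count in all 6 libraries together, so neither was tested.

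Col27a1, the fibrillar chain of cartilage and of several epithelia, was by far the most counted. It had 3866, 4006 and 3754 counts in WT and 4002, 4485 and 5576 in Trpm2-/- kidneys. The WT libraries lay between 230 and 257 CPM and the Trpm2-/- libraries between 245 and 346 CPM, so the groups overlapped, with a log2 fold change of 0.31 (edgeR adjusted p = 0.232, SE 0.1555). It was 0.20 without Trpm2-/- replicate 4 and 0.04 with a correction for gene length. Col27a1 made up 77.9% to 83.6% of fibrillar CPM in WT and 76.5% to 86.4% in Trpm2-/- kidneys, so that the fibrillar sum is mostly this gene. The sum was 285, 323 and 295 CPM in WT and 283, 355 and 453 CPM in Trpm2-/- kidneys. Without Col27a1 it was 46.7, 65.6 and 65.1 CPM in WT and 38.6, 49.4 and 107 CPM in Trpm2-/- kidneys, where 2 Trpm2-/- libraries lay below or within the WT range and replicate 4 above it. The type IV sum was 828, 860 and 711 CPM in WT and 990, 857 and 1002 CPM in Trpm2-/- kidneys. The ratio of the fibrillar to the type IV sum overlapped between genotypes, at 0.344 to 0.415 in WT and 0.286 to 0.452 in Trpm2-/- kidneys.

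The multiplexins, collagens of basement membrane zones with an endostatin-like end, were both above 0 and neither was called. Col18a1 (chromosome 10, 77052178 to 77166548) had 11708, 10762 and 8996 counts in WT and 17918, 15732 and 10320 in Trpm2-/- kidneys. Scaled for depth, Trpm2-/- replicates 1 and 2 had 1095 and 1072 CPM, above the WT range of 551 to 721 CPM, whereas replicate 4 had 641 CPM, within it. The log2 fold change was 0.52 (edgeR adjusted p = 0.159, SE 0.220) and without replicate 4 it was 0.74 with an adjusted p of 0.0292, past the threshold. Col18a1 made up 33.6% to 37.7% of collagen counts in WT and 44.6%, 45.4% and 29% in Trpm2-/- kidneys. Col15a1, found around vessels and muscle, went the other way among the replicates, with 86, 89 and 276 counts in Trpm2-/- and 87, 124 and 88 in WT kidneys, and its log2 fold change of 0.61 turned to -0.13 without replicate 4.

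The FACIT collagens bind along the surface of fibrils. Of 9 genes, 5 were tested and 0 were called by edgeR, DESeq2 or limma-voom, with 0 higher and 1 lower at an unadjusted p under 0.05. Col16a1, the most abundant of them, had 23.2, 18.0 and 25.3 CPM in WT and 16.1, 18.3 and 15.2 CPM in Trpm2-/- kidneys, with a log2 fold change of -0.42 (edgeR adjusted p = 0.153, SE 0.176). Col12a1 had 63 to 77 counts in Trpm2-/- replicates 1 and 2 and 251 in replicate 4, against 89 to 109 in WT, and its log2 fold change of 0.38 turned to -0.48 without replicate 4. Col14a1, a partner of type I fibrils, had 78, 112 and 112 counts in WT and 30, 44 and 156 in Trpm2-/- kidneys. Its log2 fold change was -0.37, and it was -1.37 with an adjusted p of 0.035 in edgeR without replicate 4. Col20a1 had -0.19, and Col9a3 had 1.04 (0.57 without Trpm2-/- replicate 4) at 6 to 27 counts per library, with 5.38% of its 75-base windows found in Tcfl5. The 3 tested chains of type VI, the beaded microfibrils around cells, had log2 fold changes of -0.34 (Col6a1), -0.48 (Col6a2) and 0.39 (Col6a3), the last of which turned to -0.26 without replicate 4. Without WT replicate 2, Col6a1 and Col6a2 had -0.08 and -0.07, and without Trpm2-/- replicate 4 Col6a2 had -0.89. Col6a1 had 99, 208 and 171 counts in WT and 131, 91 and 151 in Trpm2-/- kidneys. Col7a1, the anchoring fibril under stratified epithelia, had -0.05 and Col26a1 had -0.41, or -0.76 without replicate 4. Values of Col12a1, Col13a1, Col14a1, Col20a1, Col9a3, Col6a2, Col6a3, Col7a1 and Col26a1 are named after they were seen.

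Besides Col17a1, the transmembrane collagens hold Col13a1, a chain of neuromuscular junctions and of many adhesive cells. It had 15, 121 and 78 counts in WT and 27, 25 and 31 in Trpm2-/- kidneys. All Trpm2-/- kidneys lay below WT replicates 2 and 3 and above WT replicate 1. The log2 fold change of -1.34 was the lowest of the collagen genes (edgeR adjusted p = 0.182, SE 0.607), and without WT replicate 1 it was -1.83 with an adjusted p of 0.0177. Without WT replicate 2 it was -0.70 (edgeR adjusted p = 0.575), and with limma-voom -0.87. The 14 genes that were not tested had at most 48 counts over the 6 libraries together. Col23a1, with 23, 4 and 7 counts in WT and 5, 2 and 7 in Trpm2-/- kidneys, was the most counted of them.

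Several interstitial chains were high in Trpm2-/- replicate 4 and low in replicates 1 and 2. Of the 30 tested collagen genes, 13 had their highest CPM of all 6 libraries in Trpm2-/- replicate 4, where 19.1% of all genes tested did, 6 in replicate 1 (23.1% of all genes) and 2 in replicate 2 (15.8%). Relative to the WT mean, log2 CPM in Trpm2-/- replicates 1, 2 and 4 was -0.49, -0.82 and 0.84 for Col1a1. It was -0.97, -0.34 and 0.98 for Col1a2, and -1.78, -1.07 and 0.63 for Col14a1. Markers of fibroblasts moved alike, with -0.90, -0.63 and 1.12 for their sum, and those of endothelium had -1.26, -1.32 and 0.58. Of the 8 fibroblast markers 5 were tested and 0 called by edgeR (0 at an unadjusted p under 0.05), with Pdgfra at 8.70 to 9.56 CPM in WT and 3.67, 6.34 and 19.1 CPM in Trpm2-/- kidneys, and Mfap5 and Lum at 0 to 0.621 CPM. Of the 8 endothelial markers 1 was called, Plvap of fenestrated capillaries (34.97 to 73.3 CPM in WT, 5.66 to 9.32 CPM in Trpm2-/-), which was lower in replicate 4 too. Podocyte markers had 0 of 7 called by edgeR and 3 higher at an unadjusted p under 0.05, and macrophage markers had 1 of 6 tested, C1qa, called lower, a call lost in 11 of 18 settings. Red blood cell markers summed to 0.062 to 0.55 CPM, with Hbb-bt at 0. The part of these cell types in the collagen values was not tested.

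**Figure D5:**
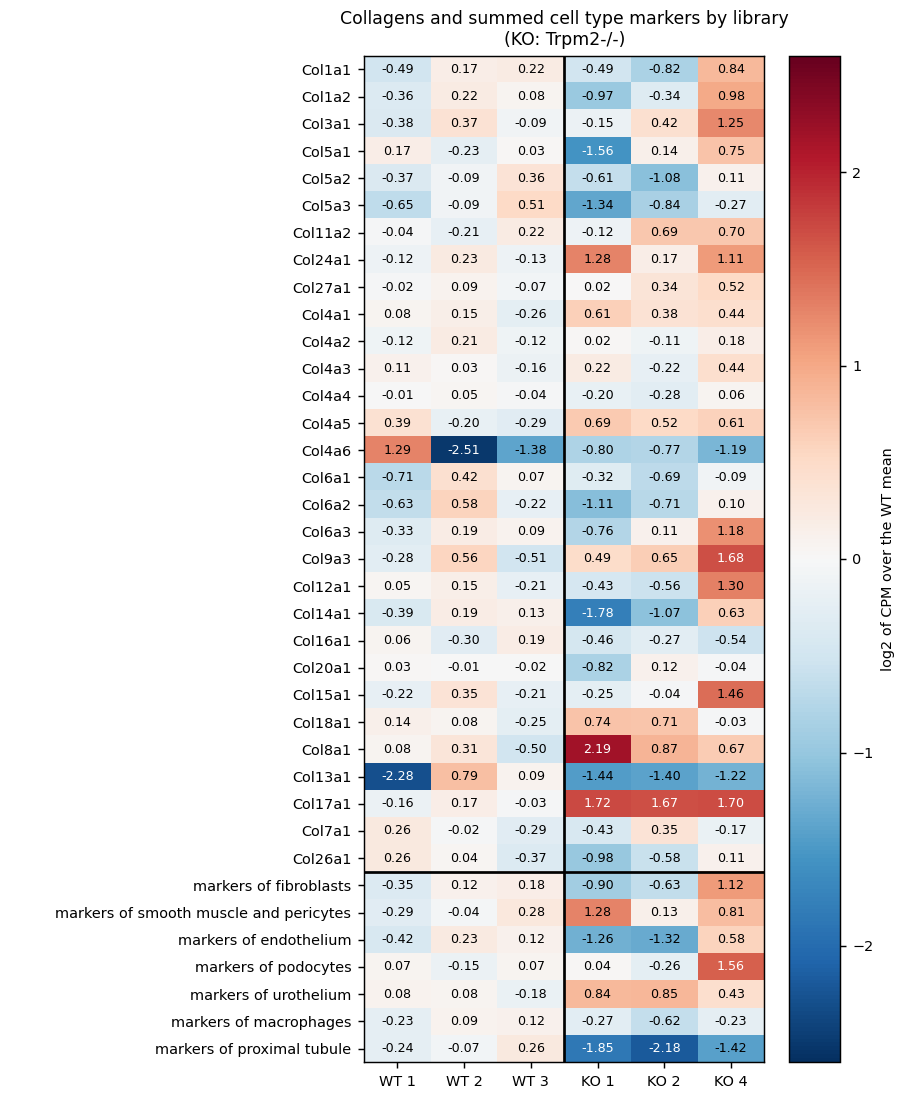
Log2 of CPM over the WT mean in each library for the 30 tested collagen genes by class and, below the line, for summed markers of 7 cell types; KO is Trpm2-/-. Replicate 4 of the Trpm2-/- kidneys is red for Col1a1 (0.84), Col3a1 (1.25), Col15a1 (1.46), and fibroblast markers (1.12), where replicate 1 is blue (-0.49, -0.15, -0.25 and -0.90). The urothelium row (0.84, 0.85 and 0.43 in Trpm2-/- replicates 1, 2 and 4) is mostly Krt20, and the mean sum of the other 7 markers went the other way.

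Genes that act on or beside collagen were read against the same background of 4.74% called higher and 7.28% called lower. Of 17 tested genes for modification and folding in the endoplasmic reticulum, 2 were higher and 2 lower, with a median log2 fold change of 0.05. Plod2, the hydroxylase that prepares lysines of the chain ends for stable crosslinks, had 68.3, 56.5 and 45.2 CPM in WT and 131, 123 and 109 CPM in Trpm2-/- kidneys. Without any overlap it rose by 1.10 on the log2 scale (edgeR adjusted p = 0.00457, SE 0.167). Serpinh1, which encodes the collagen chaperone HSP47, rose by 0.56, from 128 ± 10.4 to 188 ± 22.2 CPM (SD, n = 3). P4hb, the shared β subunit of prolyl 4-hydroxylase and a general disulfide isomerase, fell by 0.67, from 844 ± 66.6 to 530 ± 44.6 CPM (SD, n = 3), and P4ha2, an α subunit, had -0.51. P4ha1, the other α subunit, had 0.03.

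Of 12 tested genes of procollagen processing and crosslinking, 1 was higher and 0 lower, with a median of 0.28. Pxdn, peroxidasin, which forms the sulfilimine crosslink of type IV collagen, had 18.5, 17.7 and 13.5 CPM in WT and 56.3, 41.9 and 29.0 CPM in Trpm2-/- kidneys. The groups did not overlap, and the log2 fold change was 1.36 (edgeR adjusted p = 0.00756, SE 0.238). Lox, lysyl oxidase of fibrillar collagens, had 0.13. Of 9 tested genes of breakdown and its inhibitors, 2 were higher and 0 lower, with a median of 0.55. Timp1, an inhibitor of matrix metalloproteases, had 12.9, 13.5 and 12.4 CPM in WT and 23.8, 24.5 and 22.4 CPM in Trpm2-/- kidneys, and rose by 0.87. Mmp14, a membrane-bound collagenase, rose by 1.18, from 16.6 ± 3.72 to 37.7 ± 13.1 CPM (SD, n = 3). Of 7 tested collagen receptors 0 were called by edgeR, 0 had an unadjusted p under 0.05 and 7 lay above 0, with a median of 0.13, and Itga2 had 23.5 CPM in WT replicate 1 against 1.67 and 1.16 CPM in the other WT kidneys.

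Of 15 tested partners of type IV collagen in the basement membrane, 3 were higher and 0 lower, with a median of 0.30. Lama3, a laminin chain of epithelial basement membranes, had 23.4, 18.7 and 17.2 CPM in WT and 48.9, 44.4 and 31.7 CPM in Trpm2-/- kidneys, and rose by 1.08. Nid1, the nidogen that links laminin to type IV collagen, rose by 1.01, and Lama5, the laminin chain of mature tubular and glomerular basement membranes, by 0.65. Both were without overlap between genotypes. Of 9 tested partners of fibrils, 1 was higher and 0 lower, with a median of 0.46. Fn1, fibronectin, on which fibrils are laid down, had 6.84, 9.50 and 7.17 CPM in WT and 34.8, 18.2 and 21.1 CPM in Trpm2-/- kidneys, a log2 fold change of 1.66 (edgeR adjusted p = 0.00549, SE 0.266). Of the 11 called genes of these lists, Plod2, Pxdn, Timp1, Lama3 and Fn1 kept the call in all 18 alternative settings. P4ha2 lost it in 9 of them, Serpinh1 in 5, Lama5 in 4, P4hb in 3, and Mmp14 and Nid1 in 2 each.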

How the data were processed

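The collagen genes and the gene lists were chosen with earlier results of these data known. Kidney RNA was extracted in Trizol and prepared with NEBNext Ultra II reagents for Illumina HiSeq sequencing (methods of the study). The submitters' processing notes name HISAT2, StringTie and mm9, with no role given, but 98.3% of 54409 shared genes, and 44 of 44 collagen genes, have the same start and end as in GENCODE M21 (GRCm38). The counting tool and the strand setting are not given in the sources used here. The authors deposited whole read counts per gene without normalization, and FPKM values, which equal those counts divided by a gene length and by a library total. That length is the union of exons for 42 of 44 collagen genes (not for Col17a1 and Col11a2).

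Genotypes were compared with edgeR 4.0.16 under R 4.3.3 (filterByExpr with a minimum count of 10, TMM, quasi-likelihood test of genotype, two-sided, Benjamini-Hochberg over 15816 genes). CPM are TMM-scaled, and standard errors follow from the log2 fold change and the F value. P-values set the difference between genotypes against the spread between the 3 libraries of a genotype, with the dispersion estimated with help from all genes. These tests do not separate the genotype from the source of the mice. Within a genotype, counts of 2 libraries differed by 13.5 to 36.7 chi-square units per degree of freedom, so none was a duplicate. Limits from 3 counts cover counting error only. Levels of different genes were compared only per length, using the principal transcript of GENCODE M21. That rescaling and the fibrillar sum without Col27a1 (also with each library left out) were added after seeing the data, as were the alternatives for genes of the pathway and marker lists. Promoter windows came from RefSeq (GRCm38.p6), where 35 of 44 collagen genes matched, and 4 motifs were searched on both strands. They were TATAAA, the CCAAT box, the GC box (GGGCGG) and the AP-1 motif (TGANTCA), which do not overlap each other here. Alternatives used DESeq2 1.42.0 and limma 3.58.1, including limma on log2(FPKM + 1) and log2(FPKM + 0.1) of the deposited FPKM, the replicate number as a block, gene-length offsets, other filters and scalings, and leaving out each library. The named genes are those called, those past the threshold of the methods, chains with a mean FPKM of at least 1, all fibrillar and type IV chains with a count, and up to 3 called genes per list and direction. The tests were checked on simulated data, with changes larger than any collagen change here and the same dispersion for all genes. That check does not cover smaller changes or a library that stands apart.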

Additional observations from a re-analysis of the deposited data

How the results depend on the processing

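The number of collagen genes called higher, 2 of 30, was 1 with DESeq2's size factors in edgeR, with limma on log2(FPKM + 1) and on log2(FPKM + 0.1), without the mitochondrial genome and with the gene-length correction. It was 4 with DESeq2's Wald test (Col4a1 and Col4a5 joined) and 0 to 3 with a library left out. With limma on genes of at least 1 mean FPKM it was 0. That filter left out Col17a1, whose mean FPKM was 0.22, and Col8a1 was not called (limma adjusted p = 0.135). The number called lower, 0, was 1 without a filter (Col13a1) and 0 to 1 with a library left out. The median log2 fold change was -0.24 to 0.31 with a library left out. The log2 ratio of summed CPM stayed above 0 for all fibrillar and all type IV chains, at 0.09 to 0.43 and 0.17 to 0.32 with a library left out, and at 0.383 and 0.35 with library totals in place of TMM. For the fibrillar chains other than Col27a1 it was 0.13, and -0.426 to 0.399 with a library left out, below 0 without Trpm2-/- replicate 4 and without WT replicate 1 (-0.011). Col27a1 itself was 0.145 with the replicate block, Col3a1 0.14 and Col4a5 0.51 (adjusted p = 0.156 in edgeR). Genes of small change reversed, and the cause was not tested. Col1a1 was -0.105 with limma-voom, -0.023 with log2(FPKM + 1) with or without the filter of 1 FPKM, -0.091 with log2(FPKM + 0.1) and -0.074 with the gene-length correction. Col1a2 was -0.084, -0.059 and -0.143 with limma-voom, log2(FPKM + 0.1) and the length correction, and Col5a1 -0.221, -0.097 and -0.087. The length correction gave -0.072 for Col4a2 and -0.034 for Col4a3. Leaving out 1 library in turn gave ranges that cross 0, of -0.631 to 0.324 for Col1a1, -0.611 to 0.468 for Col1a2, -0.476 to 0.475 for Col5a1, -0.03 to 0.152 for Col4a2, -1.4 to 0.911 for Col4a6, -0.129 to 0.898 for Col15a1, -0.48 to 0.68 for Col12a1, -0.257 to 0.741 for Col6a3, -1.372 to 0.017 for Col14a1, -0.377 to 0.04 for Col20a1 and -0.294 to 0.108 for Col7a1.

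Replicate numbers 1 and 2 occur in both genotypes. Deviations from the genotype mean correlated at 0.064 and -0.012 over 15816 genes in same-numbered pairs. Pairs with different numbers had -0.248 to 0.217. With 2 same-numbered pairs, these values cannot tell whether a number stands for anything shared. With this replicate block, which drops WT replicate 3 and Trpm2-/- replicate 4 from the contrast, 0 collagen genes were higher and 0 lower, the median was -0.247, and Col15a1 (-0.212), Col1a1 (-0.495), Col1a2 (-0.583), Col4a2 (-0.087), Col4a3 (-0.073), Col5a1 (-0.621), Col12a1 (-0.586) and Col6a3 (-0.244) were below 0.

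Among the named genes and the settings other than leaving out a library, 488 values held both direction and side of the threshold. A further 21 reversed, 31 lost the call and 6 gained it. The replicate block is counted among these settings, and the collagen genes given above as below 0 under it are among the 21. Depth limits the 14 untested chains, whose absence of calls says nothing of their change.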
